A study of Mus musculus with 2 samples.

Results

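Gast, Cck, Cartpt, Npy, Pdyn and Dapl1 are 6 of the 31054 features measured in dissociated pancreatic islets by droplet-based single-cell RNA-seq. They were chosen by their values in these same libraries, as gut hormone, neuropeptide and companion genes that stood out between Tg7 and Wild-type cells. The levels between libraries are therefore a description of how they were selected and not a finding about them. The islets came from 12-week-old male C57Bl6 Tg7 mice, whose β-cells overexpress the microRNA miR-7a2, and from Wild-type littermates of the same age, sex and strain. Mice of both groups that were used to label β-cells carried a rat Ins2-Cre and a Rosa26-floxed-Stop-tdTomato transgene, and tdTomato reads were found in both libraries. Neither the promoter of the miR-7a2 transgene nor how many mice went into a library is stated in the sources used here. Each group was measured as 1 library, so no test between Tg7 and Wild-type was possible, no difference has a replicate check, and the bracketed 95% intervals hold counting error alone.

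Gut hormones and neuropeptides are made as longer precursors, cut by prohormone convertases in the secretory granule and often amidated at their end before release. Gastrin, the product of Gast, is a hormone of the stomach antrum that drives acid secretion, and Gast is also active in the fetal pancreas. Cck encodes cholecystokinin, a hormone of the small intestine and a peptide of the brain that empties the gall bladder and stimulates pancreatic enzyme release. Cartpt encodes the CART prepropeptide of brain, gut and islet nerves, Npy the neuropeptide Y of sympathetic nerves and hypothalamus, and Pdyn prodynorphin, the source of the opioid dynorphins. Dapl1 encodes a death-associated protein-like protein that is no hormone or neuropeptide. The mature adult β-cell is defined by insulin, and Cck and Gast are not among the genes by which it is usually recognised.

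The microRNA and the bases before the start sites are shown as sequence context of the members, and not only of those that differed most between the libraries. Mature miR-7a-5p, which RefSeq places at Mir7-2 on chr7:78888295-78888317 and at Mir7-1 on chromosome 13 (GRCm38.p6), is given with its seed, bases 2 to 8, in capitals. It is not among the measured features. The complement of the seed, GTCTTCC, was looked for in GENCODE vM1, an annotation of a build older than mm10, taking for each gene its longest 3′ UTR. It occurred in 0 of the 6 members, whose 3′ UTRs are 97 to 1436 bases long, and in 2237 of 19915 genes (11.2%).
mmu-miR-7a-5p: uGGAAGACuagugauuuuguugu

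The 100 bases before the RefSeq start of the 4 members past 4-fold in insulin cells and of Dapl1 follow, in the direction of transcription and with TATAA on either strand in capitals. Gast lies on chromosome 11 at 100334407 to 100336997, Cck on chromosome 9 at 121489824 to 121495694, Cartpt on chromosome 13 at 99898483 to 99910179 and Npy on chromosome 6 at 49822710 to 49829507. Pdyn and Dapl1 both lie on chromosome 2, at 129686549 to 129699938 and at 59484653 to 59505020 (all GRCm38.p6, the assembly of mm10). The 5 windows shown are chr11:100334307-100334406 on the plus strand, chr9:121495695-121495794 on the minus strand, chr13:99900684-99900783 on the minus strand, chr6:49822610-49822709 on the plus strand and chr2:59484553-59484652 on the plus strand. For Cartpt the start in the RefSeq promoter table lies inside the gene span given above, which reaches further upstream.
Gast: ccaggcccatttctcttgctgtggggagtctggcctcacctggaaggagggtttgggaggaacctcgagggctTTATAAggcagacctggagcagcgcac
Cck: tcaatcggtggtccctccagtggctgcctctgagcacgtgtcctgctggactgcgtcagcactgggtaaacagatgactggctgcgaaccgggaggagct
Cartpt: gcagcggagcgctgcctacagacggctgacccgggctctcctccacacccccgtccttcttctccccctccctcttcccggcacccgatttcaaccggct
Npy: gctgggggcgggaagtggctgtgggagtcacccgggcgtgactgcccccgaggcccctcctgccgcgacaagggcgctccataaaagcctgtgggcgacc
Dapl1: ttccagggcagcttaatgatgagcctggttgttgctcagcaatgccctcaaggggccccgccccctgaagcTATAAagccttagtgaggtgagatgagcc

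Gast and Dapl1 were the 2 members with TATAA from 20 to 40 bases before the start, a window in which 1428 of 32851 promoters (4.35%) hold it. In all 250 bases before the start and on both strands, TGACG, the core of the cyclic AMP response element, stood in the promoters of Cck, Cartpt and Dapl1 and in 17.8% of all promoters. The E-box CANNTG stood in Gast, Cck and Cartpt and in 66.2% of all promoters, and the homeodomain core TAAT in Gast, Pdyn and Dapl1 and in 54.9%. No match of 1 motif overlapped that of another in these promoters. The 6 members thus shared none of the 4 motifs, and a match is a description of letters and not a site.

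Barcodes with at least 1000 UMIs (unique molecular identifiers, here the counted RNA molecules) and at most 20% mitochondrial UMIs were kept, which left 1006 Tg7 and 755 Wild-type cells with no barcode in common. A cell was classed by its leading hormone when that hormone took at least 5% of its UMIs. This gave 683 Tg7 and 506 Wild-type insulin cells, 208 and 159 Gcg cells, 20 and 30 Sst cells and 35 and 15 Ppy cells. Cells with endothelial or macrophage markers numbered 32 in Tg7 and 31 in Wild-type, and 28 Tg7 and 14 Wild-type cells met no class. Median depth outside 7 hormone genes was 17305 UMIs in Tg7 insulin cells and 15052 in Wild-type insulin cells. All 6 markers of mature insulin cells had UMIs in the insulin cells of both libraries, but their summed level was 5.98 per 10000 in Tg7 and 42.7 per 10000 in Wild-type. Insulin cells that also held another hormone above 5% made up 12.2% in Tg7 and 1.78% in Wild-type. Levels are UMIs per 10000 UMIs of genes other than these 7 hormone genes, and ratios are Tg7 over Wild-type. They hold no correction for gene length and are compared between libraries and classes, not between genes.

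In insulin cells Gast, Cck and Cartpt were higher in Tg7 and Npy was lower, each by more than 4-fold. Pdyn and Dapl1 were also higher, by 2.64-fold and 1.33-fold, and did not reach 4-fold. Over all 12983 genes with at least 20 UMIs in these cells, 4.24% were at least 4-fold higher in Tg7 and 1.33% at least 4-fold lower. The 6 genes were chosen on this contrast, so nothing is read from their count. Nearest to the 4-fold limit were Gast inside it and Pdyn outside it.

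Cartpt was the most widespread of the genes that were rare in Wild-type insulin cells. It had 2036 UMIs in 449 of 683 Tg7 insulin cells and 48 UMIs in 36 of 506 Wild-type insulin cells, or 65.7% (62.0 to 69.3) and 7.11% (5.03 to 9.71) of cells. Its level was 1.47 per 10000 in Tg7 and 0.0544 per 10000 in Wild-type, a ratio of 27.0 (20.3 to 36.7). A Tg7 cell with Cartpt held a median of 3 UMIs and at most 37, while a Wild-type cell with Cartpt held a median of 1 and at most 5. The 5 Tg7 cells with the most Cartpt held 7.27% of its UMIs, so the level was spread over many cells.

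Gast had 678 UMIs in 211 Tg7 insulin cells and 31 UMIs in 25 Wild-type insulin cells, or 30.9% (27.4 to 34.5) and 4.94% (3.22 to 7.21). The level was 0.489 per 10000 in Tg7 and 0.0351 per 10000 in Wild-type, a ratio of 13.9 (9.72 to 20.7). Most cells with Gast held 1 UMI in both libraries, and the highest cell held 89 in Tg7 and 7 in Wild-type. The 5 highest Tg7 insulin cells held 37.8% of the Gast UMIs of the class, and without the 5 highest cells of each library the ratio was 13.4.

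Cck lay in far fewer cells. It had 382 UMIs in 14 Tg7 insulin cells and 2 UMIs in 2 Wild-type insulin cells, which is 2.05% (1.13 to 3.42) and 0.395% (0.0479 to 1.42) of cells and a ratio of 122 (33.4 to 1008). A cell with 264 UMIs held 69.1% of the Tg7 total. Without the 5 highest cells of each library 11 Tg7 UMIs and 0 Wild-type UMIs were left, and Cck no longer passed 4-fold (at least 2.34-fold higher, with the Wild-type class set to a floor of 3 UMIs).

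Npy ran the other way. It had 1 UMI in 1 Tg7 insulin cell and 170 UMIs in 9 Wild-type insulin cells, or 0.146% (0.00371 to 0.813) and 1.78% (0.816 to 3.35) of cells. The ratio was 0.00374 (9.43e-05 to 0.0211), or 267-fold lower in Tg7. Of the 172 Npy UMIs in Wild-type cells, 8 insulin cells held 97.7%, with 53, 24, 23, 17, 16, 12, 12 and 11 UMIs. Insulin took 37.8% of UMIs in the third of these cells and 63.8% to 73.2% in the other 7, and none was called a doublet. Npy was thus a gene of few Wild-type insulin cells and not of the class as a whole.

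Pdyn and Dapl1 were widespread in Wild-type insulin cells too. Pdyn had 4487 UMIs in 448 Tg7 insulin cells and 1084 UMIs in 211 Wild-type insulin cells, or 65.6% (61.9 to 69.2) and 41.7% (37.4 to 46.1), at 3.24 and 1.23 per 10000 and a ratio of 2.64 (2.47 to 2.82). Dapl1 had 5387 UMIs in 602 Tg7 insulin cells and 2572 UMIs in 429 Wild-type insulin cells, or 88.1% (85.5 to 90.5) and 84.8% (81.4 to 87.8), at 3.88 and 2.91 per 10000 and a ratio of 1.33 (1.27 to 1.40). The word ectopic therefore does not describe these 2 genes in insulin cells. With all UMIs as the scale, ratios in insulin cells grew by a factor of 1.73, or 0.79 in log2 units. Over all kept cells, and not insulin cells alone, the 7 hormone genes made up 43.1% of UMIs in Tg7 and 63.3% in Wild-type. With all UMIs as the scale the Pdyn ratio in insulin cells was 4.55 and passed 4-fold.

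**Figure D1:**
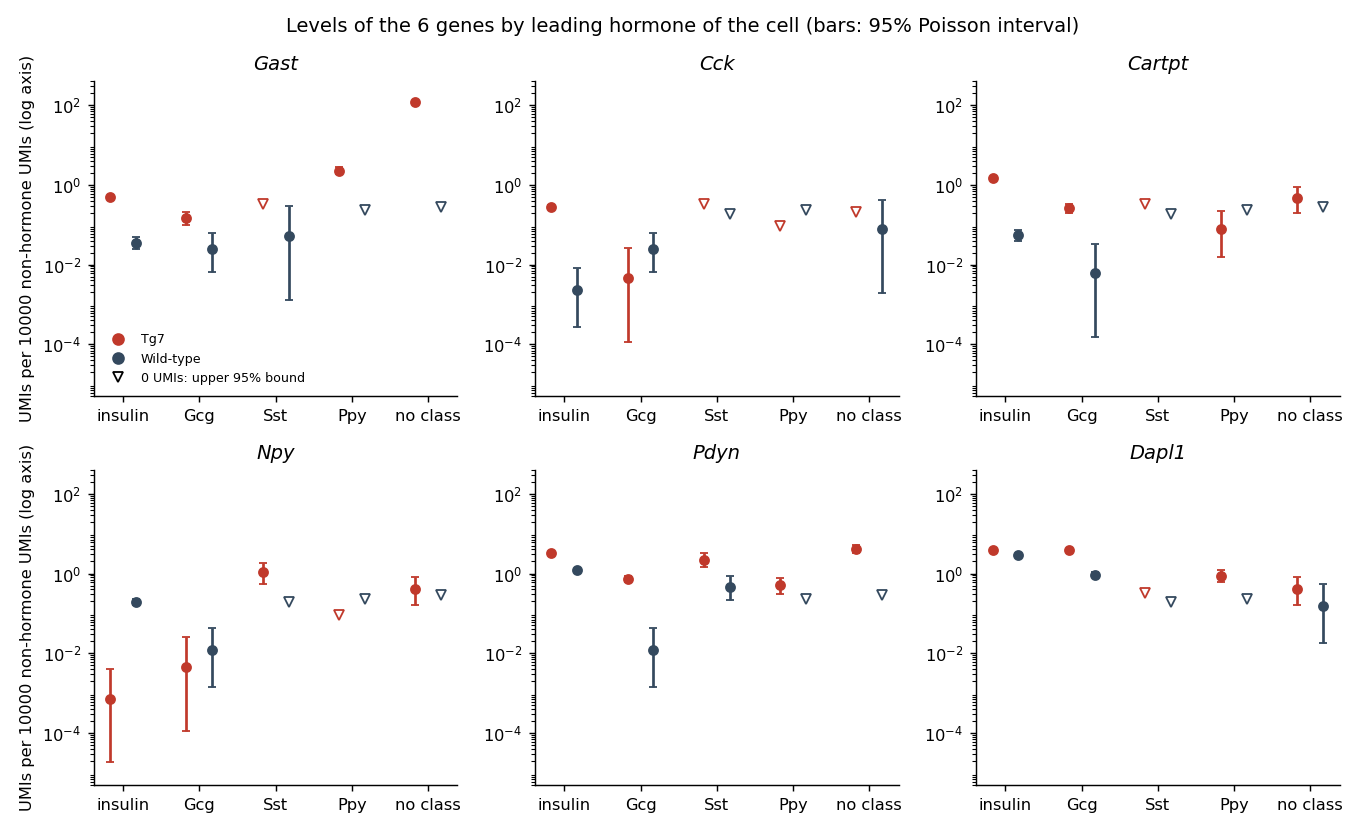
Level of each of the 6 genes (y, UMIs per 10000 non-hormone UMIs, log axis) in cells grouped by leading hormone (x), with Tg7 in red left of Wild-type in blue, points for summed UMIs, bars for the 95% Poisson interval and open triangles for the upper bound where a gene had 0 UMIs. In insulin cells Gast stood at 0.489 in Tg7 and 0.0351 in Wild-type, while its highest level, 116 per 10000, was in Tg7 cells of no class.

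Depth differs from cell to cell, so shares were also compared after thinning each cell to 2000 non-hormone UMIs, which kept 669 Tg7 and 502 Wild-type insulin cells. Cartpt then had a UMI in 22.4% of Tg7 insulin cells (19.3 to 25.8) and in 1.39% of Wild-type insulin cells (0.562 to 2.85), and Gast in 5.53% (3.92 to 7.54) and 0.598% (0.123 to 1.74). Pdyn was seen in 30.6% (27.2 to 34.3) and 14.7% (11.8 to 18.1), and Dapl1 in 43.6% (39.8 to 47.5) and 34.9% (30.7 to 39.2). These 4 genes kept their order between the libraries at matched depth, and their intervals did not overlap. The genes were chosen on this contrast and the intervals hold counting error alone, so nothing further is read from that order. For Cck, seen in 0.747% (0.243 to 1.74) of Tg7 and in 0 of 502 Wild-type cells, and for Npy, seen in 0 of 669 Tg7 and in 1.20% (0.440 to 2.58) of Wild-type cells, the intervals did overlap.

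**Figure D2:**
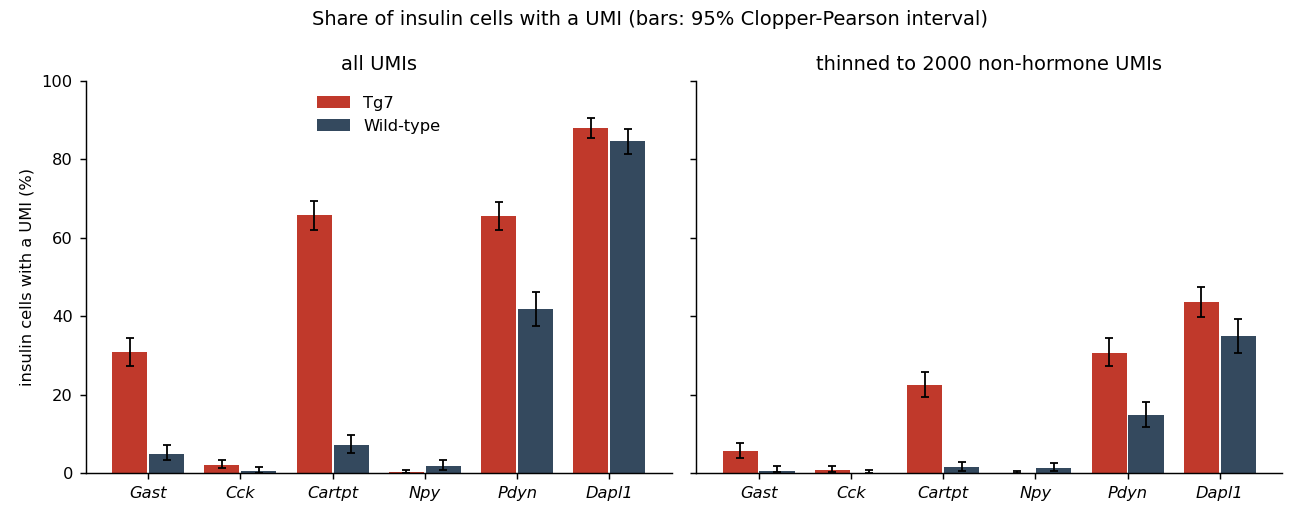
Percent of insulin cells with at least 1 UMI of each gene (y), with all UMIs on the left and after thinning to 2000 non-hormone UMIs per cell on the right; Tg7 bars stand left of Wild-type bars and error bars are 95% Clopper-Pearson intervals. Cartpt fell to 22.4% in Tg7 and 1.39% in Wild-type after thinning, against 65.7% and 7.11% with all UMIs.

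Free RNA in the droplets can put a UMI into a cell that does not express the gene. Cells with endothelial or macrophage markers, which should lack these genes, held 0 UMIs of all 6 genes in both libraries. With 32 Tg7 cells at a median of 4744 non-hormone UMIs and 31 Wild-type cells at 7889, this allows shares of up to 9.38% and 9.68%. The shares of Gast and Cartpt in Wild-type insulin cells, 4.94% and 7.11%, lie below that limit and cannot be told apart from background. The same holds for the shares of Cck and Npy in both libraries, although 53 Npy or 264 Cck UMIs in 1 cell are far above the 1 UMI that most low cells held. Insulin cells were deeper, at medians of 17305 in Tg7 and 15052 in Wild-type, so the limit may be too low for their unthinned shares. After thinning, the Tg7 share of Gast, 5.53%, also lay below 9.38%. Those of Cartpt (22.4%), Pdyn (30.6%) and Dapl1 (43.6%) lay above it. The Tg7 share of Gast is thus not cleared of background.

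Tg7 cells with very many Gast UMIs were few, and those with the most lay outside the insulin class. Gast had 2838 UMIs in all Tg7 cells and 36 in all Wild-type cells, and 71.8% of the Tg7 UMIs lay in cells that met no class. The highest cell held 1558 Gast UMIs, which was 7.11% of all its UMIs, with insulin at 0.119%, Ppy at 2.04%, Pyy at 1.83% and Iapp at 13.2%. The second held 393 Gast UMIs, with insulin at 4.45%, Sst at 4.50% and Iapp at 18.4%, and the fifth held 84 Gast UMIs, with insulin at 0.0282%, Ppy at 2.93% and Iapp at 15.1%. Iapp, the islet amyloid polypeptide that is secreted with insulin, which was not used for the classes, was thus the leading one of the 7 hormone genes in these 3 cells. The third cell, an insulin cell with insulin at 18.2% and Iapp at 20.9%, held 89 Gast UMIs. The fourth held 88 Gast UMIs and was a Ppy cell, with Ppy at 17.7% and Gcg at 10.1%.

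The limits for cells with many UMIs, 10 for Gast and Cck and 3 for Npy, were set after the values were seen. By them 15 Tg7 cells and 0 Wild-type cells were high for Gast, and these 15 held 86.0% of the Tg7 Gast UMIs. Of the 15, 11 were insulin cells, 13 also held Pdyn, 7 held tdTomato and 0 were called doublets. The 4 Tg7 cells high for Cck held 264, 48, 46 and 11 UMIs and together 96.3% of its UMIs. All 4 were insulin cells with 43 to 53 Pdyn UMIs and with Aldh1a3, a gene raised in dedifferentiated β-cells, at 3 to 7 UMIs, and Iapp took 10.9% to 31.2% of their UMIs. The cell with 264 Cck UMIs was also high for Gast, at 13 UMIs, and held 17 Cartpt and 53 Pdyn UMIs, with insulin at 9.47% of its UMIs. In Wild-type, the cell with the most Pdyn, 51 UMIs, was also the one with 7 Gast UMIs, the highest of that library, and insulin took 43.7% of its UMIs. That Wild-type cell held 13 Aldh1a3 UMIs, and a Tg7 insulin cell with 10 Gast UMIs held 15. The Aldh1a3 counts thus do not set the cells high for Cck apart, and Aldh1a3 was not compared over all insulin cells.

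**Figure D3:**
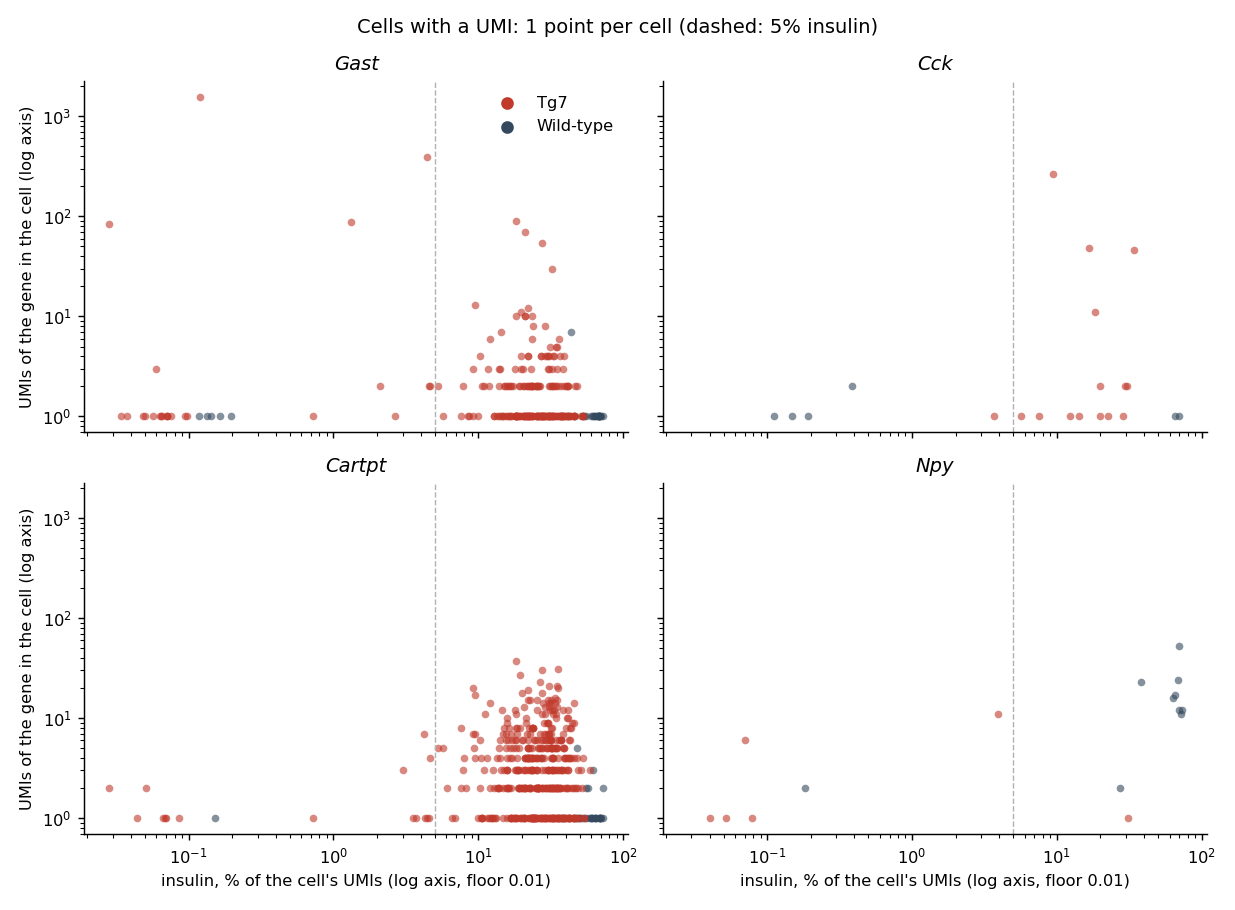
Each point is a cell with at least 1 UMI of the gene, with insulin as percent of the cell's UMIs (x, log axis) and the UMIs of the gene (y, log axis), Tg7 in red and Wild-type in blue, and the dashed line at the 5% that defines the insulin class. Tg7 cells with 1558, 393, 88 and 84 Gast UMIs sit left of the line, while the Wild-type cells with 11 to 53 Npy UMIs sit right of it.

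The next question was whether the members were found in the same cells. In Tg7, 551 of 683 insulin cells held a UMI of at least 2 of the 6 genes, or 80.7% (77.5 to 83.6), and in Wild-type 222 of 506, or 43.9% (39.5 to 48.3). At 2000 non-hormone UMIs per cell the shares were 28.7% of Tg7 insulin cells (25.3 to 32.3) and 5.38% of Wild-type insulin cells (3.57 to 7.73). With all UMIs, at least 4 of the genes were seen in 143 Tg7 insulin cells (20.9%) and in 2 Wild-type insulin cells (0.395%), and no cell held all 6. At the matched depth, at least 4 were seen in 3 of 669 Tg7 cells (0.0926% to 1.3%) and 0 of 502 Wild-type cells (0% to 0.732%). These intervals overlapped. Of the 222 Wild-type cells with at least 2 of the genes, 194 held the pair Pdyn and Dapl1. Genes seen in more cells raise these counts by themselves. The genes were chosen on this contrast, so nothing is read from the gap between the libraries.

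How often pairs of members stood together was set against the product of their separate shares. In thinned Tg7 insulin cells Gast and Cartpt shared 12 cells where the product of their shares gives 8.30, Gast and Pdyn 16 where it gives 11.3, and Cartpt and Pdyn 56 where it gives 46.0. Gast and Dapl1 shared 11 cells where it gives 16.1, Pdyn and Dapl1 89 where it gives 89.5, and Cartpt and Dapl1 72 where it gives 65.5. The Gast, Cartpt and Pdyn pairs were thus 1.22 to 1.45 times the product, with Gast pairs counted in few cells. The pairs of these genes with Dapl1 were 0.681 to 1.1 times the product, with Cartpt the highest. With all UMIs, 81.5% of the 211 Tg7 cells with Gast also held Cartpt and 81.5% held Pdyn, against 58.7% and 58.5% of the Tg7 cells without Gast. Depth was not matched in those last shares.

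Across the 683 Tg7 insulin cells the level of Gast had a Spearman rho of 0.27 with Pdyn, 0.19 with Cartpt and 0.03 with Dapl1. Cartpt had a rho of 0.17 with Pdyn and 0.13 with Dapl1. The rho of Gast with the number of non-hormone UMIs was also 0.27, and that of Pdyn was 0.30, so depth moved with these levels. Of 9682 genes compared in the same cells, the only gene at rho of at least 0.3 with Gast was Hap1 (0.33), which encodes a huntingtin-associated protein of vesicle transport. Pdyn reached that limit with Gnas (0.38), the stimulatory G protein α subunit, with Abcc8 (0.37), a subunit of the ATP-sensitive potassium channel, with Hap1 (0.35) and with Ly6e (0.32). For Cartpt no gene reached it. For Dapl1 7 genes reached it, namely Manf (0.34), Sec11c (0.34), H13 (0.33), Dnajc3 (0.33), Ostc (0.31), and, named after their values were seen, Tmed3 (0.31) and Ndufa4 (0.31). These are weak correlations in sparse counts of cells that share 1 library and are given as a description.

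The members also differed in how they varied with insulin. Insulin cells of each library were put into 4 equal groups by insulin share, whose median shares were 15.8%, 23.6%, 31.4% and 41.1% of UMIs in Tg7 and 50.3%, 60.7%, 65.8% and 70.0% in Wild-type. Pdyn stood at 3.80, 3.31, 3.33 and 2.09 per 10000 from the lowest to the highest Tg7 group, and at 1.65, 0.909, 1.15 and 1.11 per 10000 in Wild-type. Gast stood at 0.585, 0.516, 0.518 and 0.25 per 10000 in Tg7. Both were lowest in the Tg7 cells with the most insulin. That group was also the shallowest, at a median of 11572 non-hormone UMIs against 19468, 22994 and 18797 in the others. After thinning, the shares from the lowest to the highest Tg7 group were 6.13%, 5.99%, 7.1% and 4.71% for Gast. For Pdyn they were 35.6%, 36.5%, 34.9% and 22.9%. The intervals of the thinned shares overlapped between the groups for both genes.

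The level of Dapl1 ran opposite to those of Gast and Pdyn. It stood at 3.36, 3.23, 4.55 and 4.83 per 10000 in Tg7 and at 1.38, 2.72, 3.43 and 4.80 per 10000 in Wild-type, so that the groups with the most insulin had overlapping intervals in the libraries (Tg7 from 4.56 to 5.12, Wild-type from 4.49 to 5.13). After thinning, the share of Wild-type cells with Dapl1 was 25.2% in the lowest and 53.5% in the highest group, while in Tg7 it was 38.7% and 50%. Its Spearman rho with the insulin share was 0.19 in Tg7 and 0.45 in Wild-type. The insulin ranges of the libraries overlap little, so insulin share and genotype cannot be told apart here. Cartpt showed no steady order, with 1.37, 1.15, 2.07 and 1.27 per 10000 in Tg7.

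**Figure D4:**
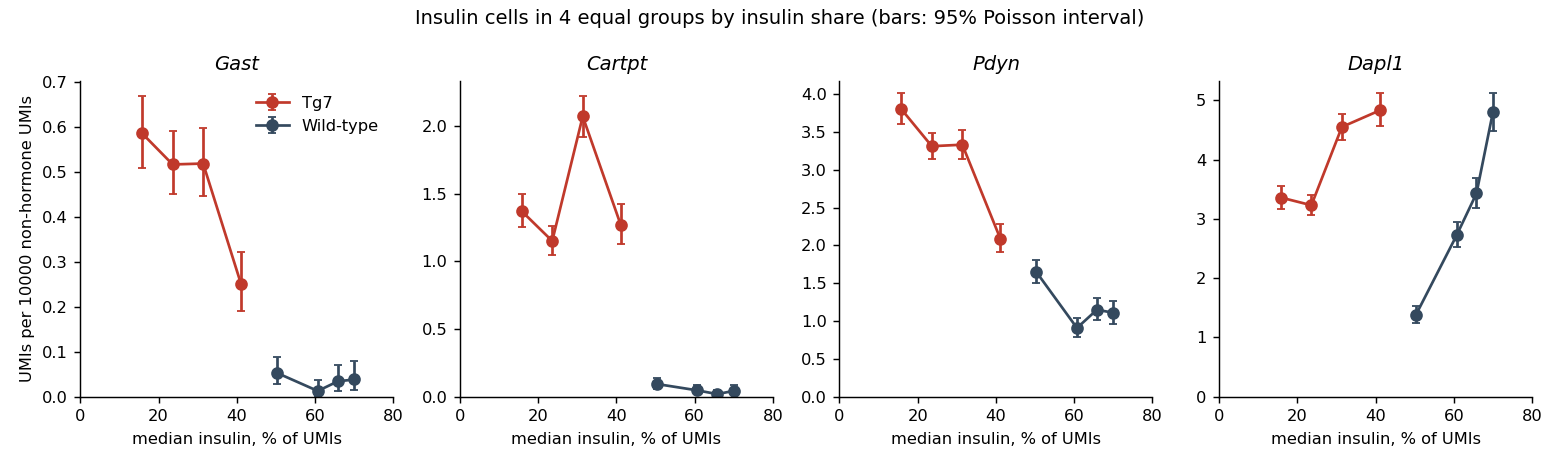
Levels (y, UMIs per 10000 non-hormone UMIs) of Gast, Cartpt, Pdyn and Dapl1 in insulin cells split into 4 equal groups by insulin share (x, median percent of UMIs), Tg7 in red and Wild-type in blue, with 95% Poisson intervals. Dapl1 reached 4.83 in Tg7 and 4.80 in Wild-type in the groups with the most insulin, while Cartpt and Gast stayed higher in every Tg7 group than in any Wild-type group.

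Insulin cells that held a further hormone had lower summed levels of 4 members. In the 83 Tg7 insulin cells with several hormones the levels were 0.301 (0.230 to 0.387) for Gast, 1.02 (0.887 to 1.17) for Cartpt, 2.25 (2.04 to 2.46) for Pdyn and 2.84 (2.61 to 3.08) for Dapl1. In the 600 Tg7 insulin cells with insulin alone they were 0.520 (0.480 to 0.563), 1.54 (1.47 to 1.62), 3.40 (3.30 to 3.51) and 4.06 (3.95 to 4.18). All 4 levels were thus lower in the cells with several hormones, and their intervals did not overlap. For Gast, 5 cells with insulin alone held 256 of the 618 UMIs of their kind. Without them that level was 0.309 (0.278 to 0.343), within the interval of the cells with several hormones, which stood at 0.166 (0.113 to 0.235) without their own 5 highest cells. These cells were left out after the values were seen. The share of cells with a UMI did not separate the kinds. Gast was seen in 33.7% (23.7 to 44.9) of the cells with several hormones and 30.5% (26.8 to 34.4) of those with insulin alone, and Pdyn in 66.3% (55.1 to 76.3) and 65.5% (61.5 to 69.3), at median depths of 23136 and 15988 non-hormone UMIs. After thinning, Gast was seen in 4.88% (1.34 to 12.0) and 6.13% (4.33 to 8.39), Cartpt in 14.6% (7.80 to 24.2) and 21.3% (18 to 24.8), Pdyn in 25.6% (16.6 to 36.4) and 33.6% (29.7 to 37.5), and Dapl1 in 35.4% (25.1 to 46.7) and 48.2% (44.1 to 52.3). All of these intervals overlapped. Only 9 Wild-type insulin cells held several hormones, too few for the same comparison.

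Gcg cells are those led by the hormone of α-cells, in which a β-cell transgene is not meant to act. The class is not α-cells alone. Several hormones were held by 35 of the 208 Tg7 Gcg cells (16.8%) and 15 of the 159 Wild-type Gcg cells (9.43%), and insulin of at least 5% by 16 and 2. In this class the 4-fold limit was passed by Gast, Cartpt, Pdyn and Dapl1, all higher in Tg7. Of 9885 genes in Gcg cells, 0.556% were at least 4-fold higher in Tg7 and 0.202% at least 4-fold lower. Dapl1 was the member seen in most Gcg cells, with 828 UMIs in 135 of 208 Tg7 cells and 156 UMIs in 56 of 159 Wild-type cells, or 64.9% (58.0 to 71.4) and 35.2% (27.8 to 43.2). Its level was 3.78 per 10000 in Tg7 and 0.942 per 10000 in Wild-type, a ratio of 4.01 (3.37 to 4.78) just inside the limit. It fell outside when scaled to all UMIs or with no barcode filter. After thinning, 37.8% of Tg7 Gcg cells (30.9 to 44.9) and 13.4% of Wild-type Gcg cells (8.47 to 19.7) held Dapl1.

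Pdyn and Cartpt in Tg7 Gcg cells lay largely in cells with insulin at 1% of UMIs or more, a lower limit than the 5% used for the classes. Pdyn had 161 UMIs in 16 Tg7 Gcg cells and 2 UMIs in 2 Wild-type Gcg cells, and Cartpt had 56 UMIs in 19 and 1 UMI in 1. Of these, 11 Pdyn and 5 Cartpt UMIs were in the 184 Tg7 Gcg cells with insulin under 1% of UMIs. The 16 Tg7 Gcg cells with insulin of at least 5% held 45 Pdyn and 37 Cartpt UMIs. A Tg7 cell with insulin at 4.62% and Gcg at 5.58% held 72 of the Pdyn UMIs. Dapl1 was different, with 674 of its 828 UMIs in the same 184 cells, at 4.08 per 10000 in Tg7 and 0.931 per 10000 in the 156 Wild-type cells of that kind, a ratio of 4.38 (3.66 to 5.26). In those Tg7 cells Dapl1 and Pdyn stood at 674 to 11 UMIs, against 5387 to 4487 in Tg7 insulin cells, so the pair did not keep 1 ratio between the classes. That comparison was chosen after the values were seen.

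Gast had 32 UMIs in 23 Tg7 Gcg cells and 4 UMIs in 4 Wild-type Gcg cells, or 11.1% (7.14 to 16.1) and 2.52% (0.690 to 6.32), a ratio of 6.04 (2.14 to 23.5). In cells with insulin under 1% it was seen in 8.15% of Tg7 cells (4.63 to 13.1) and in 2.56% of Wild-type cells (0.703 to 6.43), both below the limit set by the endothelial and macrophage cells. Cck had 1 UMI in Tg7 and 4 UMIs in Wild-type Gcg cells, and Npy 1 and 2 UMIs. At least 2 members were seen in 18.8% of Tg7 Gcg cells (13.7 to 24.7) and in 1.89% of Wild-type Gcg cells (0.391 to 5.41). After thinning, the shares were 4.08% of Tg7 Gcg cells (1.78 to 7.88) and 0% of Wild-type Gcg cells (0 to 2.32), with overlapping intervals. The genes were chosen by their values in these libraries, so nothing is read from the gap. Cartpt and Pdyn shared 9 Tg7 Gcg cells where the product of their shares gives 1.46, or 6.16 times the product, with depth not matched.

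The reporter gave a further reading of these cells. A tdTomato UMI was found in 30.7% of Tg7 insulin cells (27.3 to 34.4) and in 52.2% of Wild-type insulin cells (47.7 to 56.6), and in 2.88% of Tg7 Gcg cells (1.07 to 6.17) and 1.26% of Wild-type Gcg cells (0.153 to 4.47). Among Tg7 Gcg cells tdTomato was seen in 5 of the 19 with Cartpt (26.3%, 9.15 to 51.2), in 4 of the 16 with Pdyn (25.0%, 7.27 to 52.4) and in 4 of the 135 with Dapl1 (2.96%, 0.813 to 7.41). The Gcg cells with Cartpt or Pdyn thus held the reporter more often than those with Dapl1, from few cells and with depth not matched. In Tg7 insulin cells the share was 37.0% (30.4 to 43.9) of those with Gast and 35.0% (30.6 to 39.6) of those with Cartpt. Whether doublets or free RNA play a part in the cells that hold Gcg and insulin was not tested beyond the doublet calls.

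Sst cells, those led by the hormone of δ-cells, held few of the members. Pdyn alone passed 4-fold among genes with at least 20 UMIs, with 25 UMIs in Tg7 and 9 in Wild-type, and 0.239% of 2923 genes were at least 4-fold higher in Tg7 and 0.513% at least 4-fold lower. All 25 Tg7 UMIs of Pdyn were in 1 of 20 cells, against 6 of 30 Wild-type cells, so it was seen in 5% of Tg7 cells (0.127 to 24.9) and 20% of Wild-type cells (7.71 to 38.6). The level and the share thus pointed in opposite directions. Npy had 12 UMIs in 2 Tg7 Sst cells, 11 of them in a cell with Sst at 5.91% and insulin at 3.95% of UMIs, and 0 UMIs in Wild-type Sst cells. Dapl1, Cartpt and Cck had 0 UMIs in the Sst cells of both libraries, which allows up to 0.331 per 10000 in Tg7 and 0.190 per 10000 in Wild-type by the upper Poisson bound.

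In Ppy cells, those led by the hormone of γ-cells, Gast and Dapl1 passed 4-fold as bounds, since both had 0 UMIs in the 15 Wild-type cells. Gast had 90 UMIs in 3 of 35 Tg7 cells, 88 of them in 1 cell, and was at least 11.9-fold higher, with the Wild-type class set to the same floor of 3 UMIs. Dapl1 had 34 UMIs in 9 Tg7 cells and was at least 4.49-fold higher, and Pdyn had 20 UMIs in 3 Tg7 cells and was at least 2.64-fold higher. In these cells 0.724% of 4421 genes were at least 4-fold higher in Tg7 and 0.0679% at least 4-fold lower. In the 20 Tg7 and 10 Wild-type cells with Ppy alone above 5%, no member passed, and the same held without the 5 cells of each library with the most UMIs.

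Other peptide genes place the 6 in context. Of 69 further peptide hormone, neuropeptide and granule genes, 68 were among the features, 20 of these had no UMI in insulin cells and 20 had at least 20 UMIs. Of those 20, 5 were at least 4-fold higher in Tg7 and 3 at least 4-fold lower, beside 4.24% and 1.33% of all genes measured. Their median log2 ratio was 0.58, against -0.01 over all genes measured. The 20 hold Ppy, Pyy, Gcg, Sst and Iapp, which are left out of the values over all genes. The list was drawn up with earlier results of these data known, so nothing is read from its count. Scaled to all UMIs, 7 of the 20 were at least 4-fold higher.

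Higher in Tg7 were Sct (secretin), with 27 UMIs against 1 in Wild-type and a ratio of 17.2 (2.83 to 704), Chgb (chromogranin B, a granule protein) at 5.53 (5.41 to 5.64), Ppy (pancreatic polypeptide) at 5.42 (5.34 to 5.50), Pyy (peptide YY) at 4.54 (4.46 to 4.62) and Bdnf (a neurotrophin) at 4.03 (2.33 to 7.49). Bdnf fell below 4-fold without the cells called as doublets, at a hormone share of 10% and in cells with 1 hormone. Lower were Ucn3, the urocortin of mature β-cells, at 0.615 per 10000 in Tg7 and 6.96 per 10000 in Wild-type with a ratio of 0.0884 (0.0822 to 0.0949), Vgf, a granule peptide precursor, at 0.121 (0.0905 to 0.159) and Adm2 at 0.227 (0.138 to 0.364). Among the peptide genes plotted together, Cck and Cartpt had the highest ratios and Npy the lowest, which follows from how they were chosen.

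**Figure D5:**
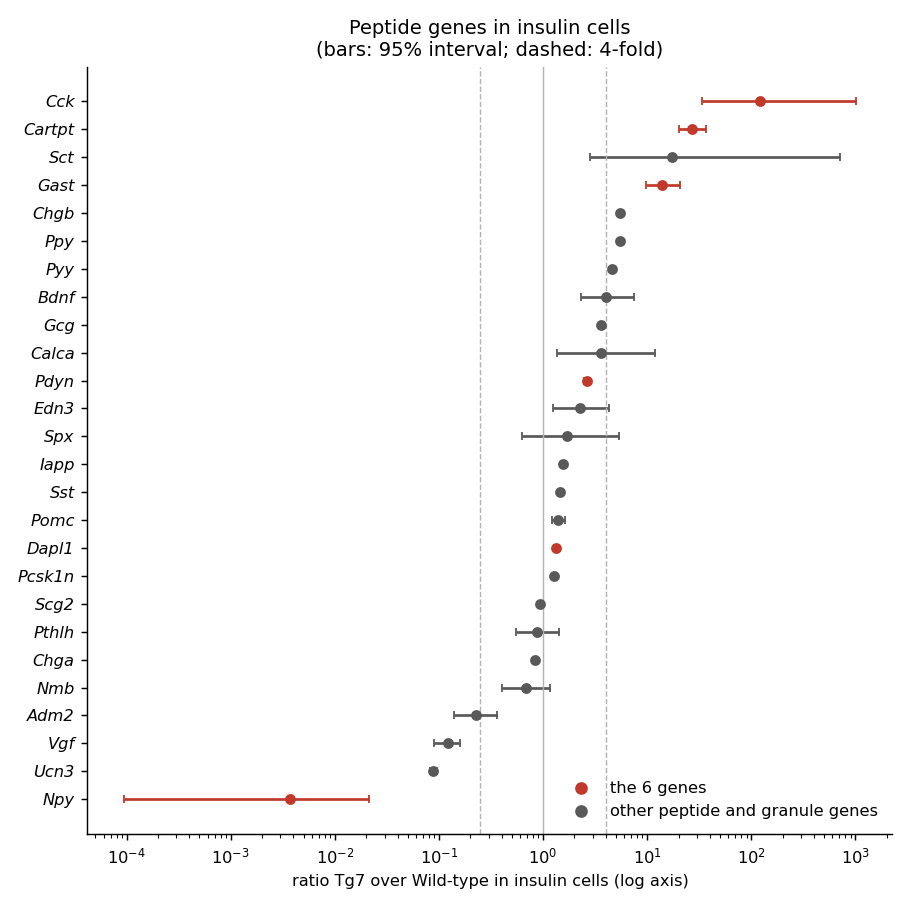
Ratio of Tg7 over Wild-type in insulin cells (x, log axis) for the 6 genes in red and for the 20 other peptide and granule genes with at least 20 UMIs in grey, with 95% intervals for counting error and dashed lines at 4-fold in each direction. Ratios ran to 122 for Cck at the top and to 0.00374 for Npy at the bottom, with Ucn3 at 0.0884.

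Genes for the processing of such precursors were compared in the same way. Of 14 genes for cleavage, amidation, sulphation and related steps, 13 had at least 20 UMIs in insulin cells, of which 9 were higher and 4 lower in Tg7, with a median log2 ratio of 0.47 against -0.01 over all genes measured. Of the 13, 1 was at least 4-fold higher in Tg7 and 0 at least 4-fold lower, beside 4.24% and 1.33% of all genes. That gene was Qpct, glutaminyl cyclase, which closes the amino end of peptides such as gastrin, with 425 UMIs in Tg7 and 16 in Wild-type and a ratio of 16.9 (10.3 to 29.9). Pam, the amidating enzyme, had a ratio of 2.85 (2.76 to 2.93) and Tpst1, a tyrosine sulphotransferase, of 1.91 (1.59 to 2.32). Pcsk1, a convertase of many prohormones, named after its value was seen, was lower, at 1.99 per 10000 in Tg7 and 4.45 per 10000 in Wild-type with a ratio of 0.448 (0.426 to 0.470). Of 10 receptor genes for gastrin, cholecystokinin, neuropeptide Y and opioids, 7 had no UMI in the insulin cells of either library and none had 20. Npy1r, a receptor of neuropeptide Y, had 7 UMIs in Tg7 cells and 3 in Wild-type cells, Oprk1, the κ-opioid receptor of dynorphins, 0 and 2, and Oprm1, the μ-opioid receptor, 1 and 0. A difference in these receptors was not detectable at this depth.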

How the data were processed

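Islet cells had been measured as 1 Tg7 and 1 Wild-type library on the 10x Genomics platform. The authors deposited filtered UMI counts per gene and barcode, and these were not altered. The submitters' processing notes name bcl2fastq 2.17.1.14, STAR and Cell Ranger 3.0.2 with mm10. The libraries held 29931777 UMIs over 1123 barcodes (Tg7) and 30829078 over 855 (Wild-type), and 117 and 100 barcodes failed the filter. Of the members, the failing barcodes held 2 Cartpt, 2 Pdyn and 3 Dapl1 UMIs in Tg7 and 1 Pdyn UMI in Wild-type.

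UMIs were summed per library and class with numpy 2.4.6 and scipy 1.17.1 in Python 3.11.15. Non-endocrine cells had all 4 hormones under 20% of UMIs and at least 4 endothelial or macrophage markers. Levels carry exact Poisson, shares exact Clopper-Pearson and ratios conditional exact binomial intervals, and a gene at 0 was set to a floor of 3 UMIs. The ratio interval was tested on simulated Poisson counts only, the setting for which it is built. That test does not cover UMIs that gather in few cells, as those of Cck and Gast did. With 1 library per group no p-value was computed. Scrublet (scanpy 1.11.5) called 14 Tg7 and 6 Wild-type barcodes as doublets, which were kept, unlike in the study, except in an alternative. The alternatives were scaling to all UMIs, TMM factors of edgeR 4.0.16 in R 4.3.3, other barcode filters, hormone shares of 2% and 10%, cells with 1 hormone, the highest cells left out and other depths.

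Members and lists were chosen with earlier results of these data known. Named were the 6 members, peptide genes past 4-fold (at most 6 in each direction), the 3 processing genes with the largest ratios, and per member the 5 most similar genes at rho of at least 0.3.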

Additional observations from a re-analysis of the deposited data

Results flagged for a closer look

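UMIs of 5 members were also found in the 28 Tg7 cells that met no class, which no comparison of the classes used, and their counts were above those in the 14 Wild-type cells of no class. Gast had 2038 UMIs there in Tg7 and 0 in Wild-type, 1558 of them in 1 cell, and Pdyn had 72 in Tg7 and 0 in Wild-type. Cartpt had 8 and 0 UMIs, Npy 7 and 0, and Dapl1 7 and 2, with overlapping intervals of its level (0.161 to 0.823 per 10000 in Tg7, 0.0185 to 0.553 per 10000 in Wild-type). Cck had 0 UMIs in the Tg7 cells and 1 in the Wild-type cells. Iapp took at least 5% of UMIs in 9 of these Tg7 cells and in 1 of these Wild-type cells. The cells of no class were of unlike make-up in the libraries. All 5 stromal markers had UMIs in the Tg7 cells, with a summed level of 25.9 per 10000, against 3 markers at 3.44 per 10000 in the Wild-type cells. Of 5 acinar markers, 4 were seen in the Tg7 cells, at 9.25 per 10000, and 0 in the Wild-type cells. Of 4 duct markers, 3 were seen in the Tg7 cells, at 1.08 per 10000, and all 4 in the Wild-type cells, at 104 per 10000. The Tg7 cells of no class with 1558, 393 and 84 Gast UMIs had Iapp at 13.2%, 18.4% and 15.1% of UMIs. The part of cells with stromal, acinar or duct markers in the UMIs of the other members was not tested. The comparison rests on few cells of 1 library each.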

How the results depend on the processing

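In insulin cells 4 members passed 4-fold, and under the 9 alternatives 3 to 5 did. No alternative turned the direction of a member, and ratios ran from 13.4 to 24.0 for Gast, 27.0 to 46.6 for Cartpt, 0.00374 to 0.0514 for Npy, 2.61 to 4.55 for Pdyn and 1.33 to 2.30 for Dapl1. For Cck they ran from 2.34, without the 5 highest cells, to 210. In Gcg cells 4 members passed, and 2 did in cells with 1 hormone (Pdyn and Dapl1) and also 2 in cells with insulin under 1% (Gast and Dapl1), an alternative chosen after seeing the data. The members lost there had fewer than 20 UMIs left, with ratios of 5.36 (1.17 to 49.8) for Pdyn and 4.87 (0.545 to 231) for Cartpt, beside 4.14 (1.35 to 16.9) for Gast. In Gcg cells with 1 hormone Cartpt had 18 UMIs in Tg7 cells and 1 in Wild-type cells. Gast stood there at 0.101 per 10000 in Tg7 and 0.0276 per 10000 in Wild-type, under 4-fold. Of the 108 Pdyn UMIs in these Tg7 cells, 72 lay in 1 cell, with insulin at 4.62% of its UMIs. In Sst cells 1 member passed, with 2 at a hormone share of 2%, where Gast joined Pdyn, and 0 without the 5 highest cells. In Ppy cells 2 passed, with 0 in cells with 1 hormone and 0 without the 5 highest cells. The share of Tg7 insulin cells with at least 2 members, 80.7%, was 64.0% when at least 2 UMIs were asked for, 28.7% at 2000 and 12.7% at 1000 non-hormone UMIs per cell, against 26.5%, 5.38% and 4.17% in Wild-type. The cause was not tested, except that fewer cells or UMIs enter each of these. Peptide genes at least 4-fold higher numbered 4 to 7 around the 5 reported. Bdnf dropped out under 3 of these settings, Sct at a minimum of 100 UMIs, and Adm2, among the lower genes, at that minimum and with all UMIs as the scale. In Tg7 insulin cells with several hormones over those with insulin alone, leaving out the 5 highest cells of each kind, added after seeing the data, turned no direction.

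No paired analysis was possible because each group is 1 library and the number that both carry pairs nothing. Leaving out a replicate was not possible either. At these depths a gene absent from the 20 Tg7 Sst or 15 Wild-type Ppy cells cannot be called off, and the 2000-UMI depth leaves 5 Tg7 insulin cells with Cck.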

Other observations

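Of the 21 Npy UMIs in Tg7 cells, 1 cell of no class held 6. The same cell held 8 UMIs of Vip (vasoactive intestinal peptide) and 38 of Fabp7, a glial fatty acid binding protein, with insulin at 0.0703% of UMIs. In Wild-type, where 172 Npy UMIs were counted, the 8 cells with at least 11 UMIs were all insulin cells, 5 of them with Pdyn and 5 with tdTomato. Npy was thus seen in different kinds of cells in the libraries, from 6 Tg7 and 10 Wild-type cells in all.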
